A study of Rattus norvegicus with 12 samples.

Results

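Nr4a1, Nr4a2, Nr4a3, Egr1 and Egr2 encode transcription factors that T cells make early after their antigen receptor is engaged. The NR4A proteins are nuclear receptors that act without a known natural ligand, and the EGR proteins bind GC-rich DNA through zinc fingers. Calcium and ERK kinase signals below the receptor switch these genes on, and a reporter of Nr4a1 is a common readout of recent receptor engagement. NR4A proteins and EGR2 are also known for restraining T cells that are stimulated again and again. The same genes respond to growth factors and other stimuli in many cell types. The 5 genes were taken by Ensembl identifier, by a rule that names them and uses no measured value, from the 26405 genes in the files: ENSRNOG00000007607 (Nr4a1), ENSRNOG00000005600 (Nr4a2), ENSRNOG00000005964 (Nr4a3), ENSRNOG00000019422 (Egr1) and ENSRNOG00000000640 (Egr2). The list was chosen with earlier results of these data known. Shares of all genes given beside it below are therefore a description and no independent test. All 5 were among the 11498 genes with enough counts to be tested.

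RNA was sequenced from CD4+ T cells that recognise the myelin sheath protein myelin basic protein and express green fluorescent protein. The cells were sorted in the cold by flow cytometry during experimental autoimmune encephalomyelitis, an autoimmune disease of the central nervous system (CNS). The study compared 4 compartments, with 3 libraries each: blood, cerebrospinal fluid (CSF), spinal cord meninges and CNS parenchyma, all labelled as wild type Lewis rats. Age, day of disease and the animals behind each library are not in the labels. The spread behind every p-value is therefore that between these libraries, and it may be technical. Genes are listed by identifier alone. For that reason the cells were not checked against T cell markers, RNA of other cell types was not measured, and the part of either in the results below was not tested. How cells were taken from each site goes with the compartment, so an effect of handling cannot be told apart and was not tested. In these bulk libraries a higher level per cell and more cells that express a gene cannot be told apart, nor can fewer cells of a type and less RNA per cell.

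Because the 5 genes moved together, the stretch upstream of the transcription start is shown for the 3 genes with a CArG box or several CREB half-sites, elements that are explained below. RefSeq promoter sequences (rat build GRCr8) matched 4 of the 5 genes by symbol. Nr4a3 had no entry. In the 250 bases before the start, 4 elements were searched on both strands. The first was TGACG, the half-site bound by CREB and related factors, which reads CGTCA on the other strand. The second was the CArG box, bound by serum response factor. Capitals mark every match to these 2, which do not overlap. The third was GGAAA, the core of NFAT sites, and the fourth the EGR site GCGGGGGCG or GCGTGGGCG, both left in lower case.
Nr4a1, chr7:134259888-134260137, plus strand: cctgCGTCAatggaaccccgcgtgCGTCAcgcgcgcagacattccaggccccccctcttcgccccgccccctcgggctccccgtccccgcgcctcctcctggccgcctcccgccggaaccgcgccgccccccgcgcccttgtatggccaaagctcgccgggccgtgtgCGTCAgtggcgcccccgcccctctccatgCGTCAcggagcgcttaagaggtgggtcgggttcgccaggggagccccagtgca
Egr1, chr18:26736828-26737077, plus strand: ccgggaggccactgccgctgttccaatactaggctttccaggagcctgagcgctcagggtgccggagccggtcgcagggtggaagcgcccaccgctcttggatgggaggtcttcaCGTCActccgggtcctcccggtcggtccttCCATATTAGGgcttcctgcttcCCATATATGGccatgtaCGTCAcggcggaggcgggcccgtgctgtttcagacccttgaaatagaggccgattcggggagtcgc
Egr2, chr20:21054442-21054691, minus strand: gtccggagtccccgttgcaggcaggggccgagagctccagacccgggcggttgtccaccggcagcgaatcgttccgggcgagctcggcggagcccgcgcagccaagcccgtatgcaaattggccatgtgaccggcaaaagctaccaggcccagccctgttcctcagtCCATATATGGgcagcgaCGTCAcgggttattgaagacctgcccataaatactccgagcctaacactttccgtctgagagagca
Nr4a1 held 4 CREB half-sites and 0 CArG boxes, Egr1 held 2 of each, and Egr2 held 1 of each. The last CArG box and the half-site after it stood at the same places in Egr1 and Egr2, at bases -83 to -74 and -66 to -62 before the start. Nr4a2 held 1 half-site, and its stretch is not shown. The NFAT core was found 2 times in Nr4a2, 1 time each in Egr1 and Egr2 and 0 times in Nr4a1. An EGR site was found in Nr4a1 alone of the 4 stretches, at bases -73 to -65. For Nr4a1, Nr4a2 and Egr2 the start in the table lies inside the annotated gene, downstream of longer RefSeq models. Of 33469 promoters of this length, 18.2% held the half-site, 1.5% a CArG box and 0.230% both. At least 2 half-sites were held by 3.98% and at least 2 CArG boxes by 0.0209%. The NFAT core was held by 56.9% and the EGR site by 2.85%. A match describes the letters and shows no binding.

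Each library held between 11277725 and 22056664 gene counts. In CPM (the count scaled to a fixed library total, with the TMM factors of edgeR), a count of 0 then allows up to 3 counts, or 0.135 to 0.261 CPM. Reads aligned to several places made up 65.2% of all entries in blood library 3 and 61.4% in meninges library 2, against 35.8% to 43.9% in the others. Results that leaving out these 2 libraries changes are given below. Median log2 fold changes over all genes tested lay between -0.02 and 0.00 in all 6 pairwise comparisons.

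All 5 genes were lowest in blood, higher in CSF, higher again in meninges and highest in parenchyma. Steps between sites named below follow this order of level, and no passage of cells was measured. In each of them every CSF library lay above every blood library, every meninges library above every CSF library, and every parenchyma library above every meninges library. Such an order held for 1.55% of all genes tested. Summed, and scaled by library size alone, the 5 genes stood at 13.2 ± 3.65 CPM (SD, n = 3) for blood, 89.8 ± 19.9 for CSF, 499 ± 120 for meninges and 1220 ± 374.5 for parenchyma. The lowest parenchyma library, at 992, lay far above the highest blood library, at 17.2. Each gene differed among the 4 compartments (edgeR quasi-likelihood F test, largest Benjamini-Hochberg adjusted p = 2.85e-07), as did 53.8% of all genes tested.

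Against blood, 5 of 5 genes were higher in CSF, where 17.5% of all genes tested were called higher, with a median log2 fold change of 2.86 over the 5 genes. In meninges 5 of 5 were higher than in blood, against 16.6% of all genes, with a median of 5.69. In parenchyma 5 of 5 were higher than in blood, against 24.6% of all genes, with a median of 7.28. With the library number as a replicate block, the shares of all genes called higher than in blood were 22.3% in CSF, 21.3% in meninges and 28.5% in parenchyma. These 3 comparisons share the blood libraries. Among all genes ordered by their rise from blood to parenchyma, Egr2 stood at place 7, Nr4a1 at 8, Nr4a3 at 9, Nr4a2 at 13 and Egr1 at 47.

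Between CNS sites the order continued. In meninges 5 of 5 genes were higher than in CSF, where only 1.97% of all genes were called higher, or 5.25% with the library number as a replicate block. The median log2 fold change of the 5 was 2.78. In parenchyma 5 of 5 were higher than in CSF, against 17.1% of all genes, or 21.7% with the block, with a median of 4.37. Parenchyma against meninges gave 4 of 5 higher, all but Egr1, against 6.58% of all genes, or 11.3% with the block, and a median of 1.59. Of all genes called, those higher were 78.5% in meninges against CSF (68.1% with DESeq2, 60.6% without the filter and 57.7% with the block) and 55.1% in parenchyma against meninges (38.5% when libraries were scaled by size alone). The 5 genes kept their direction under each of these settings. Being called higher at each of the 3 steps from blood to parenchyma held for 4 of the 5 genes and for 0.609% of all genes tested.

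**Figure D1:**
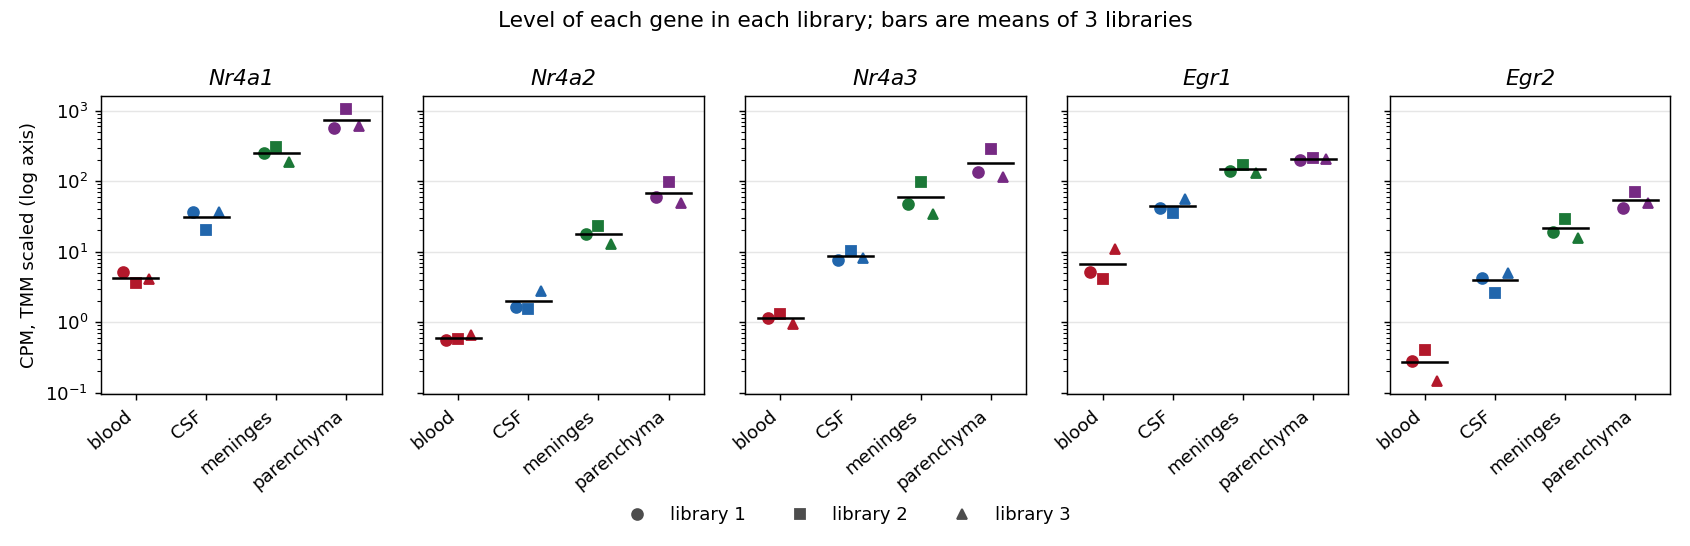
TMM-scaled CPM of each gene (log axis) in the 12 libraries, with 1 point per library, its shape giving the library number, and bars at the mean of 3 libraries. All 5 genes climb from blood to parenchyma without overlap between neighbouring compartments, and the Egr1 libraries of parenchyma, from 196.9 to 216.1 CPM, lie closest together.

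Nr4a1, also called Nur77, a nuclear receptor whose reporters track receptor engagement, rose in 3 steps from blood to parenchyma. Its blood libraries 1, 2 and 3 held 5.09, 3.60 and 4.05 CPM and its CSF libraries 36.55, 20.4 and 36.25 CPM. Its meninges libraries held 248, 309 and 185 CPM and its parenchyma libraries 576, 1043 and 608 CPM. The lowest library of each site thus lay above the highest of the site before it, by 4.00 times from blood to CSF, 5.07 times from CSF to meninges and 1.86 times from meninges to parenchyma. Its log2 fold change for CSF over blood was 2.86 with an SE of 0.32 (adjusted p = 2e-05). For meninges over CSF it was 3.00 with an SE of 0.28 (adjusted p = 6.07e-05), and for parenchyma over meninges 1.59 with an SE of 0.26 (adjusted p = 0.00188). The whole way from blood to parenchyma was a 174-fold rise, 7.44 on the log2 scale with an SE of 0.35 (adjusted p = 3.82e-09), on 208 counts in the blood libraries and 34897 in the parenchyma libraries.

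Nr4a2, also called Nurr1 and known outside the immune system for its part in dopamine neurons, had the smallest rise from blood to CSF. It held 0.565, 0.572 and 0.662 CPM in blood, on 29 counts in all, and 1.66, 1.56 and 2.75 CPM in CSF. The groups did not overlap, and CSF exceeded blood by 1.68 log2 units with an SE of 0.53 (adjusted p = 0.0242). This call was lost without blood library 1 (adjusted p = 0.075), 2 (0.062) or 3 (0.0549) or without CSF library 3 (0.0732, log2 fold change 1.43), and over all alternatives the adjusted p ran up to 0.075. The ratio of summed counts, 3.19, had a 95% exact binomial interval of 2.10 to 4.99, which covers counting error only. The step into meninges was larger, and both later steps stayed called under all alternatives. Without parenchyma library 2 the step into parenchyma was 1.62, against 1.70 for the step into CSF, so these 2 steps are not ranked. Nr4a2 held 17.6, 23.0 and 12.7 CPM in meninges and 60.0, 98.1 and 49.35 CPM in parenchyma. The log2 fold change for meninges over CSF was 3.20 with an SE of 0.32 (adjusted p = 0.00014), and for parenchyma over meninges 1.97 with an SE of 0.25 (adjusted p = 0.000421). From blood to parenchyma Nr4a2 rose 115-fold (log2 fold change 6.84, SE 0.38, adjusted p = 1.41e-08).

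Nr4a3, also called NOR1 and closely related to the other two NR4A genes, had steps of a size close to those of Nr4a1. Its blood libraries held 1.13, 1.32 and 0.956 CPM and its CSF libraries 7.69, 10.1 and 8.24 CPM. Its meninges libraries held 47.65, 97.1 and 34.75 CPM and its parenchyma libraries 136, 288 and 116 CPM. Library 2 was high at both sites, and the coefficient of variation was 55.0% in meninges and 52.4% in parenchyma, against 14.5% in CSF. The highest meninges library still lay below the lowest parenchyma library, by a factor of 1.19. Nr4a3 gained 2.91 log2 units between blood and CSF, with an SE of 0.61 (adjusted p = 0.00217). Between CSF and meninges it gained 2.78 with an SE of 0.40 (adjusted p = 0.00193), and between meninges and parenchyma 1.59 with an SE of 0.35 (adjusted p = 0.011). The last step was 1.07 (adjusted p = 0.0473) without parenchyma library 2 and 2.14 (adjusted p = 0.00258) without meninges library 2. From blood to meninges Nr4a3 rose by 5.69 (SE 0.54, adjusted p = 3.7e-06), and by 5.08 without blood library 3 and meninges library 2. From blood to parenchyma it rose 156-fold (log2 fold change 7.28, SE 0.53, adjusted p = 1.6e-07).

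Egr1, an immediate early gene induced in almost every cell type by ERK signals, had the smallest rise from meninges to parenchyma. It held 5.09, 4.12 and 10.96 CPM in blood and 42.1, 35.3 and 56.2 CPM in CSF. In meninges it held 142, 168 and 133 CPM and in parenchyma 196.9, 216.1 and 206.4 CPM. Blood library 3, which also had most entries aligned to several places, was high for this gene, while the parenchyma libraries differed by a coefficient of variation of only 4.66%. Egr1 in CSF exceeded blood by 2.76 log2 units with an SE of 0.27 (adjusted p = 4.87e-06), and in meninges it exceeded CSF by 1.73 with an SE of 0.22 (adjusted p = 0.00102). The last step, into parenchyma, was 0.48 log2 units with an SE of 0.22, which did not pass the test (adjusted p = 0.172). The lowest parenchyma library exceeded the highest meninges library by a factor of only 1.17. The share of all genes without overlap in this comparison was not counted. With the replicate block the adjusted p of this step was 0.0582. It fell under the threshold without blood library 3 (0.0437), without that library and meninges library 2 (0.0423) and without the filter on low counts (1.22e-05), and was otherwise at most 0.382. From blood to parenchyma Egr1 rose 31.55-fold (log2 fold change 4.98, SE 0.27, adjusted p = 1.4e-08).

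Egr2, also called Krox20 and known in T cells for its part in anergy and in myelinating Schwann cells for driving myelin genes, was close to the limit of detection in blood. Its blood libraries held 5, 7 and 2 counts, or 0.283, 0.400 and 0.147 CPM, the last under the limit of 3 counts. The CSF libraries held 4.18, 2.61 and 4.997 CPM, the meninges libraries 19.2, 29.3 and 15.8 CPM and the parenchyma libraries 41.6, 71.25 and 48.5 CPM. Again no neighbouring compartments overlapped. Egr2 in CSF exceeded blood by 3.72 log2 units with an SE of 0.53 (adjusted p = 0.000141), and the summed counts gave a ratio of 13.35 (95% exact binomial interval 7.78 to 24.8). The next steps were 2.46 with an SE of 0.29 (adjusted p = 0.00037) into meninges and 1.33 with an SE of 0.24 (adjusted p = 0.00361) into parenchyma. From blood to parenchyma Egr2 rose by 7.51 (SE 0.42, adjusted p = 1.47e-08), on 14 counts against 2541, whose ratio of 186 had an interval of 111 to 340.5 from counting alone.

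**Figure D2:**
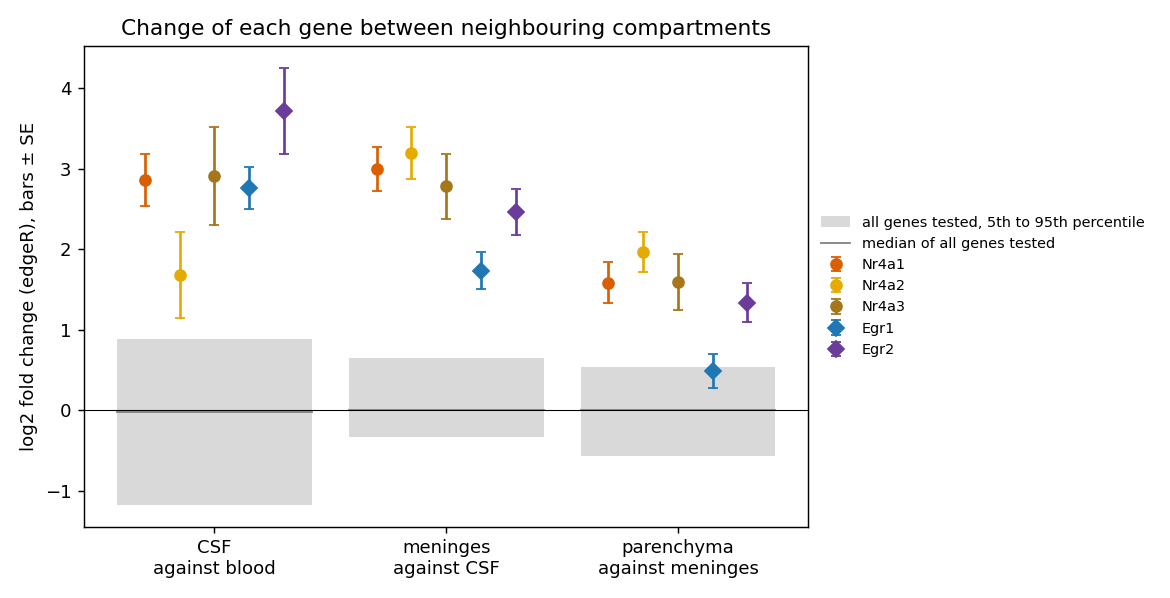
Log2 fold change (± SE) of each gene between neighbouring compartments, with circles for Nr4a genes and diamonds for Egr genes, over a grey band from the 5th to the 95th percentile of all genes tested. Every point lies above the band except Egr1 in parenchyma against meninges, at 0.48.

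By their point estimates, the genes divided their rise differently over the 3 steps. The shares that follow carry no error, and the blood level rests on 14 counts for Egr2 and 29 for Nr4a2. Of the log2 distance from blood to parenchyma, the step into CSF made up 55.4% for Egr1, 49.5% for Egr2, 40% for Nr4a3, 38.4% for Nr4a1 and 24.5% for Nr4a2. The step from meninges to parenchyma made up 9.73% for Egr1 and 17.7% for Egr2, against 21.3% to 28.7% for the Nr4a genes. To test such differences independently of how libraries were scaled, the log2 ratio of the counts of each of 10 pairs of genes was taken within each library. Differences among the 4 compartments were judged by an exact permutation test of the sum of squares between compartments, over all 369600 assignments of the libraries. Its p-values were adjusted over the 10 pairs of genes and judge no direction and no single pair of compartments. This test was chosen after the levels of the genes had been seen, and it ignores the library numbers. Exchanging compartments only among libraries of the same number, added later still, gave the same 7 pairs under the threshold. Transcript length enters these ratios, so only their change between compartments is read.

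Egr1 lost ground against Nr4a1 from CSF onwards. The log2 ratio of Egr1 to Nr4a1 was 0.00, 0.19 and 1.43 in blood libraries 1, 2 and 3 and 0.20, 0.79 and 0.63 in CSF. It was -0.81, -0.88 and -0.48 in meninges and -1.55, -2.27 and -1.56 in parenchyma. The means were alike in blood (0.54 ± 0.78, SD, n = 3) and CSF (0.54 ± 0.30), and those of meninges (-0.72 ± 0.21) and parenchyma (-1.79 ± 0.41) were lower in turn, with no overlap after CSF (adjusted exact permutation p = 0.00325). Blood and CSF did not separate. Against Nr4a2, Egr1 stood at 3.29 ± 0.62 in blood, and went from 4.49 ± 0.15 in CSF to 3.09 ± 0.26 in meninges and 1.64 ± 0.47 in parenchyma (adjusted exact permutation p = 0.00228). Against Nr4a3 the mean was 2.41 ± 0.95 over blood libraries and went from 2.34 ± 0.49 in CSF to 1.43 ± 0.58 in meninges and 0.32 ± 0.65 in parenchyma (adjusted exact permutation p = 0.0243), a call lost without CSF library 1 (0.0527) or parenchyma library 2 (0.107).

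The 2 Egr genes also parted. The log2 ratio of Egr2 to Egr1 had a mean of -4.41 ± 1.35 (SD, n = 3) over blood libraries, -3.52 ± 0.21 over CSF, -2.82 ± 0.28 over meninges and -1.98 ± 0.33 over parenchyma libraries (adjusted exact permutation p = 0.0039). The blood value was spread widely, from -5.90 in library 3, with its 2 Egr2 counts, to -3.27 in library 2. The span between the lowest and the highest compartment mean was 2.43, and 1.68 without blood library 3. Parenchyma libraries lay above all others. The ratio of Egr2 to Nr4a1 spanned less. Its means were -3.86 ± 0.71 for blood, -2.97 ± 0.14 for CSF, -3.55 ± 0.14 for meninges and -3.77 ± 0.11 for parenchyma, which did not pass the test (adjusted exact permutation p = 0.102). Without blood library 2 it passed (0.000433), and with exchange within library numbers it did not (0.15). Within each of the 3 numbers this ratio was highest in CSF, lower in meninges and lower still in parenchyma, from -3.12 through -3.69 to -3.79 for number 1, -2.95 through -3.40 to -3.87 for number 2 and -2.85 through -3.55 to -3.65 for number 3. Blood lay below CSF in each number. How many pairs of other genes show such orders was not counted, so they are not read as a trend.

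Within the Nr4a family, Nr4a2 stood higher against Nr4a1 in blood than at the other sites. Its log2 ratio to Nr4a1 averaged -2.75 ± 0.31 (SD, n = 3) for blood, -3.95 ± 0.43 for CSF, -3.81 ± 0.06 for meninges and -3.43 ± 0.18 for parenchyma (adjusted exact permutation p = 0.0039). All 3 blood libraries lay above all 9 others, but blood library 1, at -3.11, lay close to parenchyma library 1, at -3.26. Nr4a2 held only 10, 10 and 9 counts in blood, so counting error is large there. No test of this ratio compared blood with CSF alone. The ratio of Nr4a3 to Nr4a1 had means between -2.15 and -1.80 and did not pass the test (adjusted exact permutation p = 0.759), which does not show that the 2 genes changed alike. The 10 pairs share genes, so their tests are not independent, and how many pairs of other genes pass was not counted. Of the 10 pairs 7 passed, a count that is therefore not read as a trait of these genes. The other two that involve Nr4a2 were its ratios to Nr4a3 (adjusted exact permutation p = 0.0271, and 0.0762 without blood library 3 or 0.0597 without CSF library 1) and to Egr2 (0.0013). Egr2 to Nr4a3 did not pass (0.26), but did without CSF library 2 (0.0447).

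**Figure D3:**
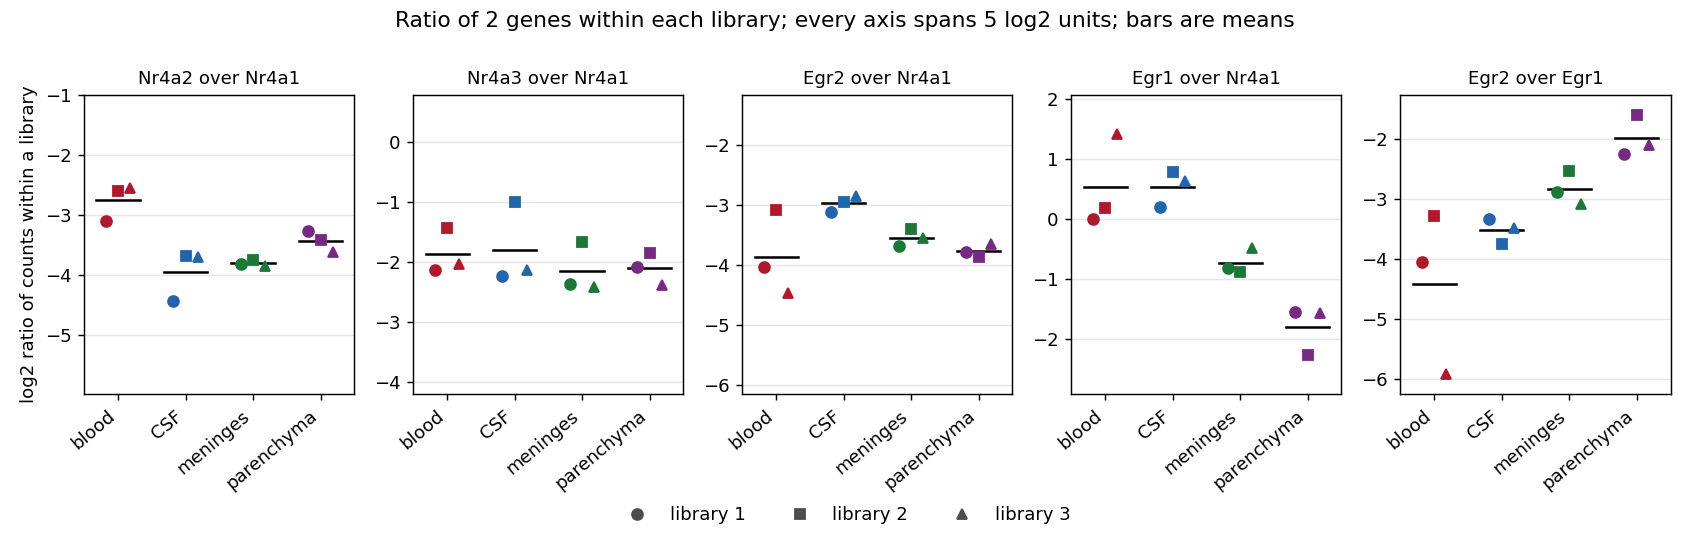
Log2 ratio of the counts of 2 genes within each library for 5 of the 10 pairs, with bars at the mean of 3 libraries and 5 log2 units on every vertical axis. Egr1 over Nr4a1 drops from 0.54 in CSF to -1.79 in parenchyma and Egr2 over Egr1 climbs, while Nr4a3 over Nr4a1 shows no separation of compartments.

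Between libraries of 1 compartment the genes moved together at some sites and not at others. In meninges and in parenchyma library 2 was the highest of the 3 for all 5 genes. In parenchyma library 2 exceeded the compartment mean of log2 CPM by 0.80 for Nr4a3, 0.57 for Nr4a2, 0.55 for Nr4a1 and 0.44 for Egr2, but by 0.07 for Egr1. In meninges it did so by 0.83 for Nr4a3, 0.50 for Egr2, 0.41 for Nr4a2, 0.35 for Nr4a1 and 0.20 for Egr1. Meninges library 3 was the lowest for all 5 genes. How many of all genes tested show these orders was not counted, so they are not read as a trait of the 5. Meninges library 2 also had 61.4% of its entries aligned to several places. In CSF the picture differed: library 2 was the lowest for Nr4a1 (-0.56), Egr2 (-0.52), Egr1 (-0.31) and Nr4a2 (-0.29) and the highest for Nr4a3 (0.23). In blood no library was the highest for more than 2 of the genes, and the counts of Nr4a2 and Egr2 there were too few to rank libraries. For Nr4a1 the variation between libraries was well above counting error, 35.2% against 0.927% in parenchyma, while for Nr4a2 in blood it was 8.997% against 32.2%, so that depth sets the limit there.

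**Figure D4:**
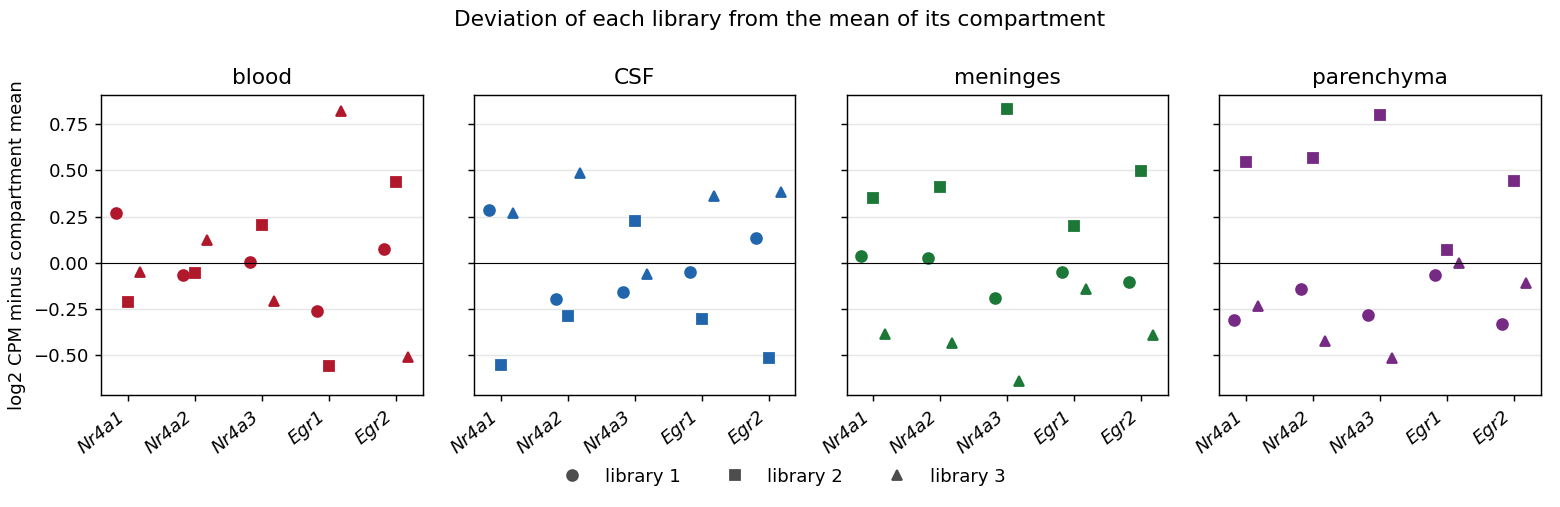
Deviation of each library from the mean log2 CPM of its compartment for the 5 genes, with the point shape giving the library number. Library 2 is on top for all 5 genes in meninges and parenchyma, by up to 0.83, and lowest for 4 of the 5 in CSF.

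Genes outside the 5 with the most similar pattern were sought among 8402 genes with a mean of at least 10 CPM in their highest compartment. Likeness was the Pearson correlation of log2 CPM over the 12 libraries with the mean standardised profile of the 5 genes. As the libraries form 4 compartments, it mainly reflects their order and is given as a description. The closest was ENSRNOG00000050509 (r = 0.996), whose blood libraries averaged 2.02 ± 0.160 CPM (SD, n = 3), its CSF libraries 5.12 ± 0.220, its meninges libraries 13.5 ± 2.11 and its parenchyma libraries 21.4 ± 5.75. Next was ENSRNOG00000027024 (r = 0.989), whose means in the same order were 0.287 ± 0.112, 3.14 ± 1.28, 17.1 ± 2.75 and 69.7 ± 5.42 CPM. The 5 genes themselves correlated with their mean profile at 0.998 (Nr4a1), 0.994 (Nr4a3), 0.993 (Egr2), 0.982 (Nr4a2) and 0.975 (Egr1), values in which each gene is part of the profile. The first of these other genes rose over a narrower range than any of the 5, and the second reached its level in parenchyma with libraries close together.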

How the data were processed

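The authors deposited raw read counts, with 1 file for each library and 26405 Ensembl identifiers in each. Tools named in the submitters' processing notes, without roles, are HTSeq, STAR, SAMtools, DESeq2 and CASAVA 1.8.2. The genome build, annotation release and strand setting were not given in the sources read, so reads of antisense neighbours may be mixed in. The 5 summary lines of each file (0.0412% to 65.2% of entries each, and 2 of them at 0) stayed out of library sizes and tests.

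Names of the 5 genes came with the list of identifiers. The RefSeq table, with an Ensembl identifier in 0 of 47357 rows, named no other. The planned lists, among them receptor response genes, general immediate early and cell handling genes and cell type markers, were therefore not used. Likeness was given for 2 identifiers, as the rule for named genes provides. The genes and lists were chosen with earlier results of these data known.

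The analysis used edgeR 4.0.16 under R 4.3.3: filterByExpr (11498 genes left), TMM scaling and 1 quasi-likelihood fit of all 12 libraries with compartment as the only term, 6 pairwise contrasts and an F test. A gene was called at a Benjamini-Hochberg adjusted p under 0.05 over all genes tested. Standard errors were derived from the F statistic. Log2 CPM used a prior count of 2, and ratios within a library a count of 0.5 added to each gene. The main fit was tested on simulated data for parenchyma against blood alone. The permutation test, the replicate block and DESeq2 were not tested in this way. Alternatives were no filter, library size alone, DESeq2 1.42.0, a replicate block and left-out libraries. Deviations of libraries with the same number correlated at 0.149 to 0.450 over genes in 5 of the 6 pairs of compartments, above the 0.1 asked of each, so the numbers were read as pairing them; in meninges against blood the lowest was 0.0766. The labels do not say what a number stands for. The main fit and its p-values therefore leave this pairing out, and the replicate block is given as an alternative.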

Additional observations from a re-analysis of the deposited data

How the results depend on the processing

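The counts of the 5 genes called higher did not move by more than 1 gene in any comparison under the 18 alternatives. Of 540 log2 fold changes recomputed, 533 kept direction and side of the threshold, 4 lost the call, all of them Nr4a2 in CSF against blood with a library left out, and 3 gained it, all of them Egr1 in parenchyma against meninges. None reversed. Without the filter adjusted p-values were far smaller and are not comparable with the rest. The number of all genes called, which sets the background, depended more on the setting. Meninges against CSF gave 289 genes, and 890 without the filter, 498 with DESeq2, 539 without the 4 libraries numbered 2 (chosen after seeing the data), 1046 with the replicate block and 126 to 315 with 1 library left out. Parenchyma against meninges gave 1375, and 2428 with the replicate block, 764 without blood library 3 and meninges library 2, and 739 to 1739 with 1 library left out. The replicate block changed no call of the 5 genes or of the ratios between them. In meninges against blood, where the numbers did not pair all libraries, it gave 5148 genes against 4095, and 5 of 6 libraries correlated best with their own number. Leaving libraries out of the ratios of 2 genes was also chosen after seeing the data. Depth limits Egr2 and Nr4a2 in blood, at 14 and 29 counts. The causes were not tested.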
